A study of Mus musculus with 12 samples.

Results

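The salt-inducible kinases (SIKs) and the CRTC coactivators that they phosphorylate were followed in M1-activated bone marrow-derived macrophages (BM-Mɸs) of mice with and without myeloid ErbB4. They were covered by 8 genes, Sik1, Sik2, Sik3, Crtc1, Crtc2, Crtc3, Stk11 and Creb1, with 9 transcripts, of 22243 genes and 28808 transcripts in the deposited table. Sik2 was chosen by its genotype difference in these same libraries, so that its values by genotype are a description with no test. The other 7 were chosen as its kinase relatives, its upstream kinase and the proteins downstream of it. The 6 ErbB4myeKO mice carried LysMCre and floxed ErbB4 alleles, and the 6 ErbB4FF controls carried the floxed alleles without Cre, all on a C57Bl/6 background. LysMCre is expressed from a myeloid lysozyme gene, so deletion was directed at macrophages and neutrophils and not at macrophages alone. Each of 6 litters gave 1 mouse of each genotype, and the batch on the labels splits the libraries in the same way as the litter number, so that litter and batch cannot be told apart. Bone marrow cells of all 12 mice were grown in medium conditioned by CMG14-12 cells, a source of M-CSF, then held in 100 U/mL IFN-γ for 16 h and stimulated with LPS at 100 ng/mL over a further 6 h. All 12 libraries thus came from stimulated cells, and neither age nor sex of the mice is on the labels.

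SIKs belong to the AMPK-related kinases and are switched on when LKB1, the product of Stk11, phosphorylates their activation loop. Active SIKs phosphorylate CRTCs, which are then held in the cytoplasm by 14-3-3 proteins, and class IIa histone deacetylases. When cAMP rises, PKA phosphorylates SIKs and weakens this hold, calcineurin can dephosphorylate CRTCs, and CRTCs enter the nucleus and co-activate CREB1 at cAMP response elements. In macrophages, SIK inhibitors are known to raise IL-10 through CRTC and CREB, and Sik1 is itself a CREB target in several tissues. These steps are changes in phosphorylation and location, which RNA abundance does not show.

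Because CREB1 binds the letters TGACG, alone or as part of the palindrome TGACGTCA, the promoters of the members were searched for TGACG on either strand. A promoter was taken as the 250 bases before and 50 bases after a gene's start in RefSeq on GRCm38.p6, and 6 of the 8 members had one there (Sik2, Sik3, Crtc1, Crtc3, Stk11 and Creb1). The 3 members with at least 1 match are shown 5′ to 3′ on the strand of the gene, with the matches in capitals, as TGACG or as its reverse complement CGTCA. The Sik3 sequence is all 250 bases before the start (chr9:46012570-46012819, plus strand, GRCm38.p6), the Sik2 sequence spans the start (chr9:51009051-51009080, minus strand) and the Stk11 sequence lies before it (chr10:80115565-80115594, plus strand).
Sik3: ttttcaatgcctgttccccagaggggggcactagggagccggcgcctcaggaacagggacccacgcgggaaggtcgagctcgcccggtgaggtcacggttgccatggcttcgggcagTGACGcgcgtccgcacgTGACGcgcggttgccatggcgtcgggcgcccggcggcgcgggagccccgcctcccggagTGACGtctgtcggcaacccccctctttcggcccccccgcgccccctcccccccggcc
Sik2: gcccccTGACGtcggctcaCGTCAgcgccg
Stk11: gcttactcccatTGACGggcgtctcagaca

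Sik3 held 3 matches, whose first bases lay 133, 116 and 57 bases before the start. Sik2 held 2, with first bases 1 base before and 13 bases after the start, and Stk11 held 1, at 218 bases before it. No match lay within the windows of Creb1, Crtc1 and Crtc3. Of 32851 promoters of this length in the table, 20.8% held at least 1 match, 5.01% at least 2 and 1.03% at least 3. The longer TGACGTC, which contains TGACG, was in the windows of Sik2 and Sik3 and in 3.21% of all promoters, and the full TGACGTCA was in none of the 6 and in 1.79% of all. A match describes these letters only and is not evidence of binding.

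The values are TPM, transcript abundances that are corrected for transcript length and scaled to the same total in every library, which the authors estimated with kallisto for transcripts that the APPRIS annotation marks as principal. Read depth cannot be taken from TPM, and the spread between litters is the error used throughout. Erbb4 itself, the targeted gene, averaged 0.583 ± 0.242 TPM (SD, n = 6) under the ErbB4myeKO label and 0.450 ± 0.132 TPM (SD, n = 6) under the ErbB4FF label, and was higher under the ErbB4myeKO label in 4 of 6 litters. Whole-transcript TPM does not show whether the floxed part was lost, so that these levels do not check the labels, and libraries are named by their label throughout. Of the 8 M1 genes, 5 had a log2 ratio above 0 and 3 below 0, with none called and a median of 0.17. The 3 that went the same way in 6 of 6 litters were Tnf at 0.51 ± 0.68 and Il12b at 1.19 ± 1.39, both higher under the ErbB4myeKO label, and Cxcl10 at -0.18 ± 0.12, which was lower (SD, n = 6; limma adjusted p = 0.603 for each). Without litter 2, Tnf was at 0.26 and Il12b at 0.75. Nos2, listed at 0 in libraries of both labels, had medians of 0.0263 TPM under the ErbB4myeKO label and 25.8 TPM under the ErbB4FF label, and was lower in 4 litters and higher in 1 (limma adjusted p = 0.653). Litter 5 stood apart. Principal transcripts took 71.4% and 74.7% of the TPM in its libraries and 59.0% to 64.9% in the others, and the 10 most abundant genes took 20.8% and 22.1% of that TPM, against 14.96% to 18.1% elsewhere. The library labelled ErbB4myeKO of litter 3 had the fewest genes above 0, 10214, where the highest had 12985. All 7 macrophage markers passed the filter of a mean of 1 TPM, as did all 8 M1 genes. Of the macrophage markers 4 had a log2 ratio above 0 and 3 below 0, with none called. Of these, Fcgr1 was lower under the ErbB4myeKO label in 6 of 6 litters at -0.86 ± 0.74 (medians of 103 and 234 TPM), and Mertk was higher in 6 of 6 at 0.14 ± 0.19 (SD, n = 6; limma adjusted p = 0.603 and 0.642), with 0.07 without litter 6. None of the 7 lymphocyte, 5 mast cell and basophil and 5 erythroid markers reached a mean of 1 TPM, and their sums stayed at or below 0.654, 2.82 and 0.696 TPM under the ErbB4myeKO label and 0.538, 3.99 and 0.981 TPM under the ErbB4FF label. Of 8 neutrophil markers 4 passed, with summed levels of 39.6 to 371 TPM under the ErbB4myeKO label and 39.9 to 185 TPM under the ErbB4FF label, while Ly6g stayed at or below 0.448 TPM. Of the 4 that passed, 2 had a log2 ratio above 0 and 2 below 0, with none called. Among them, Camp was higher under the ErbB4myeKO label in 6 of 6 litters at 0.45 ± 0.41 (SD, n = 6, limma adjusted p = 0.603). The 6 fibroblast markers summed to 9.28 to 103 TPM under the ErbB4myeKO label and 15.9 to 97.9 TPM under the ErbB4FF label, and Col1a1 and Col1a2 led them. All 5 that passed had a log2 ratio above 0, between 0.03 and 0.32, none in 6 of 6 litters and none called. The 6 dendritic cell markers summed to 8.95 to 33.4 TPM and 4.47 to 25.5 TPM in the same order, mostly from Xcr1, with Siglech and Cd209a at 0 throughout. Xcr1 was higher under the ErbB4myeKO label in 5 of 6 litters at 0.63 ± 0.66 (SD, n = 6, limma adjusted p = 0.603). Clec9a, the other that passed, was at 0.10 ± 1.70 (SD, n = 6), and -0.18 without litter 5. In these bulk RNA data, fewer cells of a type and less RNA per cell cannot be told apart, and the part of other cells in the values below was not tested.

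Sik2, a kinase first studied in adipocytes, was the lowest of the 8 genes and was selected on its split by label. Its only transcript in the table, ENSMUST00000041375 (gene ENSMUSG00000037112, GRCm38 chromosome 9, 50892801 to 51009073, minus strand), was listed under the ErbB4myeKO label, in litters 1 to 6, at 0, 0.384, 2.10, 1.90, 0.156 and 0.798 TPM. Of the ErbB4FF libraries, litter 6 alone was above 0, at 0.144 TPM, and the other 5 were listed at 0. The library labelled ErbB4myeKO was thus the higher in 5 litters, and in litter 1 both were listed at 0. Only the values of litters 3 and 4 lay above 1 TPM, and Sik2 was below the filter, with a mean of 0.457 TPM. The highest value came from the library with the fewest genes above 0. The authors' mean of natural log values for this transcript, exponentiated, came to a geometric mean of 2.52 normalized estimated counts. It covers all 12 libraries, of which 6 were listed at 0, and does not give the depth of the libraries above 0. Of its 31-mers, the sequence words that kallisto matches, 97.9% are shared with further Sik2 transcripts of the annotation and 15.9% with other genes. The authors' table holds 1 of 8 annotated Sik2 transcripts, and the others were not analysed here.

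**Figure D1:**
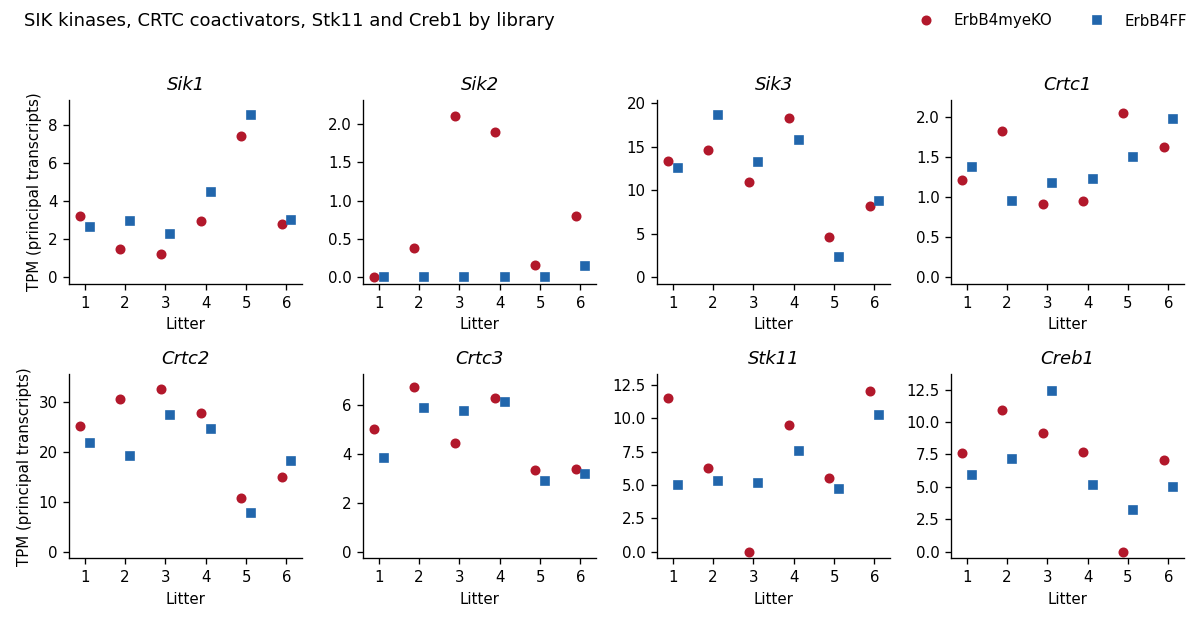
TPM (vertical axis, starting at 0, scaled per gene) of the 8 genes by litter (horizontal axis), 1 point per library, circles for ErbB4myeKO and squares for ErbB4FF. Sik2 is listed at 0 in 6 of 12 libraries, and the litter 5 libraries are the highest for Sik1 and the lowest for Sik3 and Crtc2.

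No gene of the 8780 tested passed an adjusted p of 0.05 for genotype (limma, blocked by litter, Benjamini-Hochberg, 0% called), the smallest adjusted p was 0.603, and 721 genes had an unadjusted p under 0.05. The 7 members that entered the fit were accordingly all uncalled, and the values below describe how closely each could be measured. Sik1 (ENSMUSG00000024042, chromosome 17, 31844250 to 31855804, minus strand), the SIK that cAMP induces, was 3.21, 1.49, 1.24, 2.97, 7.41 and 2.78 TPM in litters 1 to 6 under the ErbB4myeKO label. Its ErbB4FF libraries were at 2.64, 2.95, 2.27, 4.46, 8.51 and 2.99 TPM. The groups overlapped, and the ErbB4myeKO library was the lower of its pair in 5 of 6 litters, with litter 1 the exception. The mean within-litter log2 ratio of TPM + 0.5 was -0.34 ± 0.39 (SD, n = 6; SE 0.17, limma adjusted p = 0.603). Without litter 5 it was -0.37 ± 0.43 (SD, n = 5).

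Sik3 (ENSMUSG00000034135, chromosome 9, 46012820 to 46224194, plus strand), the most abundant SIK, was 13.3, 14.6, 10.9, 18.2, 4.56 and 8.12 TPM under the ErbB4myeKO label. It was 12.5, 18.6, 13.2, 15.8, 2.26 and 8.75 TPM under the ErbB4FF label. Pairs split evenly, with 3 litters in each direction, and the groups covered nearly the same range. The mean log2 ratio was 0.07 ± 0.44 (SD, n = 6; limma adjusted p = 0.894) and turned to -0.09 ± 0.23 (SD, n = 5) without litter 5, which had the largest ratio, 0.87.

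The CRTC coactivators were dominated by Crtc2 (ENSMUSG00000027936, chromosome 3, 90254163 to 90264125, plus strand), best known for driving gluconeogenic genes in liver. Its levels under the ErbB4myeKO label were 25.1, 30.7, 32.7, 27.7, 10.8 and 14.9 TPM in litters 1 to 6. Under the ErbB4FF label they were 21.8, 19.2, 27.4, 24.5, 7.76 and 18.2 TPM. The ErbB4myeKO library was the higher in 5 of 6 litters, with litter 6 the exception, and the ranges overlapped. The mean log2 ratio was 0.24 ± 0.32 (SD, n = 6; SE 0.12, limma adjusted p = 0.603), 0.20 ± 0.34 (SD, n = 5) without litter 5, and 0.16 without litter 2, the litter with the largest ratio.

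Crtc3 (ENSMUSG00000030527, chromosome 7, 80586627 to 80688877, minus strand), a CRTC that acts in macrophages downstream of SIKs, was 5.04, 6.73, 4.45, 6.31, 3.34 and 3.36 TPM under the ErbB4myeKO label. It was 3.82, 5.90, 5.77, 6.13, 2.88 and 3.16 TPM under the ErbB4FF label. It too was higher in 5 of 6 litters, with litter 3 the exception, at a mean log2 ratio of 0.08 ± 0.23 (SD, n = 6; limma adjusted p = 0.840) that was 0.03 without litter 1 and 0.17 without litter 3. Crtc1 (ENSMUSG00000003575, chromosome 8, 70382355 to 70439579, minus strand), known mainly from neurons, was the lowest CRTC. It ranged from 0.916 to 2.05 TPM, with a median of 1.42, under the ErbB4myeKO label and from 0.946 to 1.97 TPM, with a median of 1.29, under the ErbB4FF label. The ranges were nearly the same, 2 litters were higher and 4 lower, and the mean log2 ratio was 0.04 ± 0.39 (SD, n = 6; limma adjusted p = 0.961), turning to -0.09 without litter 2 and -0.03 without litter 5.

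**Figure D2:**
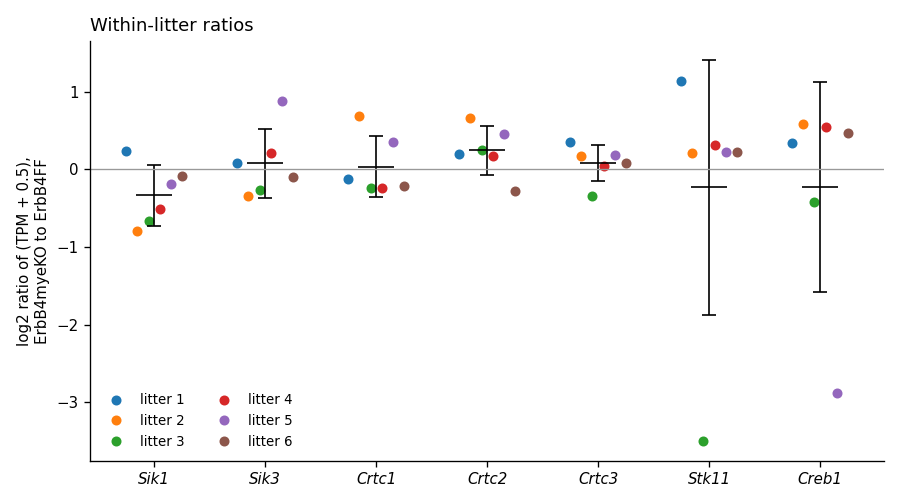
Within-litter log2 ratio of TPM + 0.5 from the ErbB4myeKO to the ErbB4FF library (vertical axis) for the 7 genes in the fit, 1 coloured point per litter, with a long tick at the mean and bars of 1 SD over 6 litters. Stk11 in litter 3 (-3.50) and Creb1 in litter 5 (-2.89) lie far below the other litters of the same gene.

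Stk11 (ENSMUSG00000003068, chromosome 10, 80115803 to 80130682, plus strand), which encodes the kinase LKB1, was 11.5, 6.25, 0, 9.52, 5.52 and 12.1 TPM under the ErbB4myeKO label. It was 4.97, 5.31, 5.17, 7.54, 4.66 and 10.2 TPM under the ErbB4FF label. The ErbB4myeKO library was the higher in 5 of 6 litters, by log2 ratios of 0.22 to 1.13. In litter 3 it was listed at 0, in the library with the fewest genes above 0, and that litter decided the sign of the mean. The mean log2 ratio was -0.23 over 6 litters (SE 0.55, limma adjusted p = 0.905) and 0.42 without litter 3 (limma adjusted p = 0.515). With that library at 0, the mean also moved with the pseudocount, to -0.58 at 0.1 and -0.11 at 1. Of the 31-mers of this transcript, 99.7% also occur in other transcripts of Stk11, and 7.97% in other genes.

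Creb1 (ENSMUSG00000025958, chromosome 1, 64532645 to 64604548, plus strand), the transcription factor that CRTCs co-activate, was the 1 member with 2 transcripts in the table. Their sum was 7.62, 11.0, 9.14, 7.68, 0 and 7.09 TPM under the ErbB4myeKO label. It was 5.92, 7.12, 12.4, 5.13, 3.20 and 5.004 TPM under the ErbB4FF label. It was higher under the ErbB4myeKO label in 4 litters and lower in litters 3 and 5, where the ErbB4myeKO library of litter 5 was listed at 0. The mean log2 ratio was -0.23 (SE 0.46, limma adjusted p = 0.885), turning to 0.30 without litter 5 (limma adjusted p = 0.554) and to 0.08 with the more abundant transcript alone (limma adjusted p = 0.908). It was -0.57 with a pseudocount of 0.1 and -0.11 with 1. Beside the SE of 0.55 for Stk11 and 0.46 for Creb1, the median SE of all genes tested was 0.14.

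The transcripts of Creb1 traded places between libraries. ENSMUST00000049932, of 5009 bases, ran under the ErbB4myeKO label at 4.62, 3.81, 7.01, 3.80, 0 and 2.82 TPM, and ENSMUST00000190348, of 1260 bases, at 3.0, 7.15, 2.14, 3.89, 0 and 4.27 TPM. Under the ErbB4FF label the longer transcript was at 5.92, 3.96, 4.26, 5.13, 0 and 1.70 TPM. The shorter one there was at 4.94e-05, 3.16, 8.17, 0, 3.20 and 3.30 TPM. The longer transcript held 52.2% ± 16.8 (SD, n = 5 litters) of Creb1 TPM under the ErbB4myeKO label and 64.8% ± 33.3 (SD, n = 5) under the ErbB4FF label. It was lower in 3 of 5 litters, a mean difference of -12.5 percentage points (two-sided exact permutation p = 0.5, where the smallest p that 5 litters allow is 0.0625). With 1 litter left out in turn it ran from -26.3 points (without litter 3) to -3.04 points (without litter 4). All 31-mers of each transcript occur in another annotated transcript of Creb1, so that the split rests on the estimate and not on sequence found in 1 transcript alone.

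**Figure D3:**
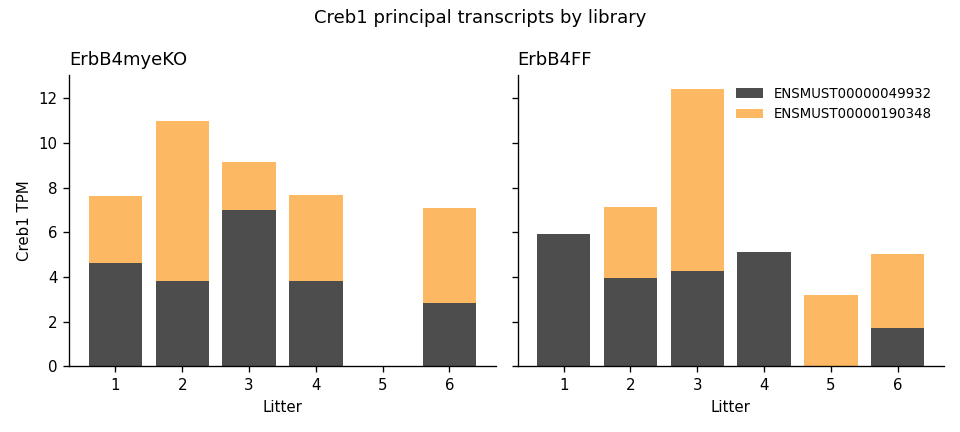
Creb1 TPM (vertical axis, starting at 0) by litter (horizontal axis) in ErbB4myeKO libraries (left) and ErbB4FF libraries (right), with ENSMUST00000049932 in dark grey and ENSMUST00000190348 stacked above it in orange. The dark part is 4.62 of 7.62 TPM in litter 1 of the ErbB4myeKO group and nearly all of 5.92 TPM in litter 1 of the ErbB4FF group, and litter 5 shows none.

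Across all 12 libraries the order of mean levels was Crtc2 (21.7 TPM), Sik3 (11.7 TPM), Stk11 (6.90 TPM), Creb1 (6.78 TPM), Crtc3 (4.74 TPM), Sik1 (3.58 TPM), Crtc1 (1.39 TPM) and Sik2 (0.457 TPM). TPM are divided by transcript length, but they cover only the principal transcripts of each gene, and the order is one of those estimates. By the mean of the pair of libraries, Crtc2 was above Sik3 and Sik1 above Crtc1 in 6 of 6 litters, each with a two-sided exact permutation p of 0.0312, the smallest that 6 litters allow, and an adjusted p of 0.0938 over the 6 neighbouring pairs without Sik2. The other 4 of these pairs held their order in 4 or 5 litters (exact permutation p from 0.156 to 1). No pair passed an adjusted p of 0.05, and with only these 2 pairs at the smallest exact p none could have. The neighbouring pairs were themselves set by the order of these same levels. In the ErbB4myeKO library of litter 2, Sik1 (1.49 TPM) was below Crtc1 (1.82 TPM), and over the ErbB4myeKO libraries alone the exact permutation p of that pair was 0.0625. The place of Sik2 below Crtc1 was not tested, as it uses the values that selected Sik2. In the ErbB4myeKO libraries of litters 3 and 4, Sik2 (2.10 and 1.90 TPM) was above Crtc1 (0.916 and 0.950 TPM). Within the SIKs, Sik3 supplied 69.4% to 88.6% of the summed TPM in the 10 libraries of the other litters, but 37.6% and 21.0% in litter 5, where Sik1 supplied 61.1% and 79.0%. The SIK sum itself was 10.8 and 12.1 TPM in litter 5 and 11.7 to 23.1 TPM elsewhere. Crtc2 supplied 73.7% to 85.9% of CRTC TPM outside litter 5 and 66.8% and 63.98% in it.

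Litter separated several members. A moderated F test over the litter terms of the same limma fit, added after the data had been seen, called 4 of the 7 members, where 44.9% of all 8780 genes were called. Adjusted p was 0.00435 for Sik3, 0.00473 for Crtc2, 0.0106 for Sik1 and 0.0239 for Crtc3 (limma), and 0.0906, 0.229 and 0.504 for Creb1, Stk11 and Crtc1. The members' share was near the background and is no result about them. Without litter 5, 0 of 7 were called (Sik3 had the smallest adjusted p, 0.0521, limma) beside 11.1% of all genes. Without litter 2, 4 or 6 in turn 3 of 7 were called, beside 46.4%, 39% and 37.4% of all genes, again near the background. On the log2 scale of TPM + 0.5, the 2 libraries of litter 5 lay above the mean of the others by 1.46 for Sik1 and 0.34 for Crtc1. For Sik3, Crtc2, Crtc3, Creb1 and Stk11 the difference was -1.85, -1.32, -0.59, -2.56 and -0.15.

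Litters also differed by transcript length, litter 5 the most. When the 10085 transcripts tested were put in order of length and split into 4 classes of equal size, the median log2 difference of litter 5 from the other litters was 0.66 for the shortest class (201 to 1629 bases). It was 0.22 for 1630 to 2639 bases, -0.11 for 2640 to 4032 bases and -0.55 for 4033 bases and longer. The same medians for the shortest and the longest class were 0.21 and -0.05 in litter 6, and in litters 1 to 4 they lay between -0.34 and -0.06 for the shortest and between 0.15 and 0.20 for the longest. Crtc3 (5115 bases, -0.59) lay near the median of its class. Sik1 (4521 bases, 1.46) and Crtc1 (5683 bases, 0.34) lay above it, and Sik3 (6287 bases, -1.85) and the longer Creb1 transcript (-3.19) lay below it. Crtc2 (2747 bases, -1.32), Stk11 (2566 bases, -0.15) and the shorter Creb1 transcript (1260 bases, -1.10) lay below the medians of their classes as well. Lengths are those of GENCODE M21, which holds another version of the Sik1 transcript than the one quantified, so the length of Sik1 is approximate. The part of length in these differences was not tested.

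**Figure D4:**
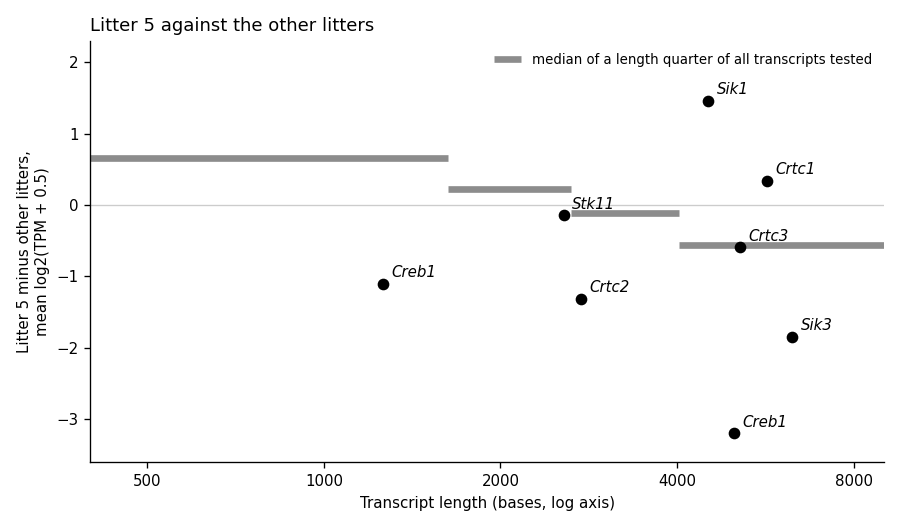
Mean log2(TPM + 0.5) of litter 5 minus that of the other litters (vertical axis) against transcript length in bases (horizontal log axis), with grey bars at the medians of 4 length classes and black points for the 8 member transcripts in the fit. The bars step down from 0.66 to -0.55, Sik1 stands at 1.46 and the longer Creb1 transcript at -3.19.

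Over the 12 libraries, which share 6 litters, log2 levels of Sik3 and Crtc3 ran together (Pearson r = 0.832, and 0.882 over 10 libraries without litter 5). Sik3 and Crtc2 gave r = 0.871, but 0.454 without litter 5. Sik1 ran against Crtc2 (r = -0.849, and -0.519 without litter 5) and against Creb1 (r = -0.754, and -0.696 without it). Between Sik1 and Sik3, r was -0.681 and became 0.192 without litter 5. Between the within-litter ratios of the 6 litters, which take the level of the litter away, r was 0.360 for Sik3 and Crtc3 and 0.108 for Sik3 and Crtc2. It was -0.489 for Sik1 and Crtc2, -0.132 for Sik1 and Creb1 and 0.419 for Sik1 and Sik3. These are descriptions with no test, and the libraries share litter and composition.

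Among the 8780 genes tested, the one whose levels most resembled those of Sik1 over the 12 libraries was Gm2a, the GM2 ganglioside activator (r = 0.967, and 0.949 without litter 5). For Sik3 it was Kdm3b, a histone demethylase (r = 0.974, and 0.921), for Crtc2 Dennd5a (r = 0.971, and 0.896) and for Crtc3 Htt, the huntingtin gene (r = 0.942, and 0.913). Crtc1 was closest to Wdr18 (r = 0.911, and 0.926). Creb1 was closest to Ncoa5 (r = 0.957), with 0.458 without litter 5. Stk11 was closest to Aga (r = 0.943, Spearman rho = 0.545), with 0.406 without litter 3, where Stk11 was listed at 0 in 1 library. Nat10, the next closest to Stk11 (r = 0.941, Spearman rho = 0.832), gave 0.745 without litter 3.

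The genes around the SIK and CRTC module were described from 10 lists, and no gene of any list was called for genotype in either direction, beside 0% of all genes. Over all genes tested the median log2 ratio was -0.00068. Of the LKB1 partners, which assemble with LKB1 to activate it, Cab39 was abundant at 46.7 TPM with a log2 ratio of -0.04 ± 0.14 (SD, n = 6), and Strada and Stradb lay below the filter. Of 7 AMPK subunits 4 were tested, with a list median of -0.01, which turned to 0.06 without litter 1, 0.07 without litter 3 and 0.006 after rescaling to equal totals. Prkaa1, a catalytic subunit, was higher under the ErbB4myeKO label in 6 of 6 litters at 0.61 ± 1.03 (SD, n = 6; limma adjusted p = 0.641), of which litter 5 alone had 2.70, and the mean was 0.20 without it. Of 9 other kinases that LKB1 can activate 4 were tested, with a median of 0.10, between 0.01 and 0.11 with 1 litter left out. The lowest of these was Mark4 at -0.86 ± 0.94 (SD, n = 6; limma adjusted p = 0.603).

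Among the regulators of the switch, 5 of 6 PKA subunits were tested, 3 higher and 2 lower, with a median of 0.03, between 0.005 and 0.08 with 1 litter left out. Prkaca, the main catalytic subunit, was lower under the ErbB4myeKO label in 6 of 6 litters at -0.26 ± 0.32 (SD, n = 6; limma adjusted p = 0.603), and -0.14 without litter 3. Prkar1a, a regulatory subunit, was the most abundant of them at 131 TPM with a ratio of 0.03 ± 0.13 (SD, n = 6). Of 4 calcineurin subunits 3 were tested, with a median of -0.03 that turned to 0.11 without litter 3 and 0.09 without litter 5, and was -0.14 without litter 1. All 7 14-3-3 genes were tested, 2 higher and 5 lower, with a median of -0.02 that turned to 0.03 without litter 5 and 0.002 after rescaling to equal totals. Ywhaz, at 324 TPM, and Ywhae, at 289 TPM, were the most abundant of them. The class IIa HDACs, the other main SIK substrates, were low, and 1 of 4 was tested. Hdac5 passed the filter, at -0.42 ± 1.33 (SD, n = 6; limma adjusted p = 0.794), with -0.83 without litter 2 and -0.11 without litter 1. Below the filter, Hdac4 (0.763 TPM) was higher under the ErbB4myeKO label in 6 of 6 litters at 0.23 ± 0.19 (SD, n = 6), Hdac9 (0.327 TPM) was lower in 5 of 6 at -0.23 ± 0.26 (SD, n = 6), and Hdac7 had a mean of 0.150 TPM.

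Of the CREB relatives and their acetyltransferases, Crem, Atf1, Crebbp and Ep300, 2 were higher and 2 lower, between -0.14 and 0.11, and their median of -0.02 turned to between 0.01 and 0.08 without litter 1, 2 or 5. Of 20 cAMP-responsive CREB targets 16 were tested, 6 higher and 10 lower, with a median of -0.07 that turned to 0.05 without litter 3. Dusp1, a phosphatase that switches off MAP kinases, ran from 118 to 358 TPM under the ErbB4myeKO label and from 167 to 429 TPM under the ErbB4FF label. It was the lower of its pair in 6 of 6 litters, at -0.39 ± 0.29 (SD, n = 6; limma adjusted p = 0.603), although the ranges overlapped. Fos, a subunit of AP-1, was lower in 5 of 6 litters at -0.54 ± 0.38 (SD, n = 6; limma adjusted p = 0.603). Areg, which encodes the EGF receptor ligand amphiregulin, was higher in 6 of 6 litters at 0.48 ± 0.28 (SD, n = 6; limma adjusted p = 0.603), from medians of 0.418 and 0.217 TPM. Nr4a3 was higher under the ErbB4myeKO label in 5 of 6 litters at 0.59 ± 0.74 (SD, n = 6, limma adjusted p = 0.612), from medians of 1.43 and 0.669 TPM. Without litter 5 its ratio was 0.85. The targets Junb (301 TPM), Gadd45b (266 TPM) and Pde4b (110 TPM) lay between -0.09 and 0.04. Of 5 genes known to rise with SIK inhibitors in macrophages only Il10 and Nr4a1 were tested. Il10 was 22.9 to 133 TPM under the ErbB4myeKO label and 30.8 to 116 TPM under the ErbB4FF label, lower in 4 of 6 litters at -0.18 ± 0.33 (SD, n = 6; limma adjusted p = 0.664), and -0.10 without litter 3. Nr4a1, an orphan nuclear receptor, was at 0.10 ± 0.73 (SD, n = 6; limma adjusted p = 0.917), from -0.03 without litter 6 to 0.37 without litter 3.

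**Figure D5:**
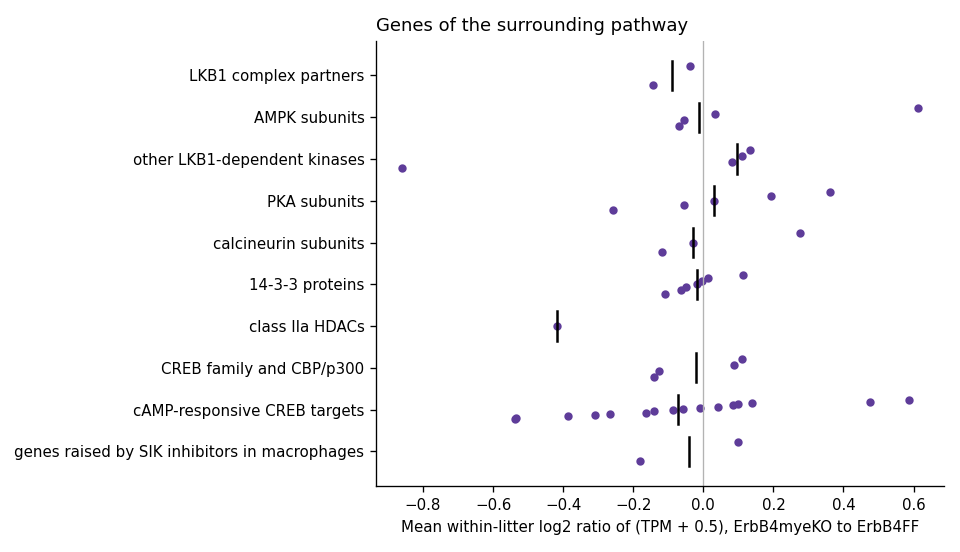
Mean within-litter log2 ratio of TPM + 0.5 from ErbB4myeKO to ErbB4FF (horizontal axis) of each tested gene in 10 lists (vertical axis), 1 point per gene, with a black tick at each list's median. The 16 CREB targets span both sides of 0 around a median of -0.07, and Prkaa1 at 0.61 and Mark4 at -0.86 are the farthest AMPK subunit and LKB1-dependent kinase.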

How the data were processed

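The 12 libraries, 1 per mouse, were made with a stranded kit for polyA RNA and read from 1 end over 75 bases. The authors pseudoaligned reads with kallisto and deposited TPM per principal transcript. The submitters' processing notes also name CASAVA, sleuth and mm10, and versions and the transcriptome release are not given in the sources used here. The authors also deposited sleuth's mean natural log of normalized estimated counts, used only as a guide to depth, and sleuth's p-values, q-values and log2 ratios for genotype, which were not used.

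Of 29213 lines, 405 repeated a transcript and were counted once. TPM were summed per Ensembl gene, with positions from GENCODE M21, and features averaging 1 TPM or more over the libraries were kept, 8780 genes and 10085 transcripts. Genotype and litter were the terms of a limma model (version 3.58.1, R 4.3.3, eBayes with a trend) of log2(TPM + 0.5), and p was adjusted after Benjamini and Hochberg and called under 0.05. Sex is not on the labels and was no covariate. Littermates deviated together from their group means (correlation 0.273 to 0.774 in the 6 litters), so the pairing was kept. Levels and transcript shares were compared by exact permutation over litters. The limma gene fit and the litter F test were tried on simulated data, and the exact permutations were not. Other steps used Python 3.11.15 with scipy 1.17.1, pandas 2.3.3, numpy 2.4.6 and, for plots, matplotlib 3.10.9.

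The members, lists and tests were chosen with earlier results of these data known. Genes named are the members, from each list a few of the most abundant, most extreme or same-signed genes over all litters, the gene most like each member and the markers. The alternatives tried were leaving out the litter block, the trend, the filter or each litter, a filter at 5 TPM, pseudocounts of 0.1 and 1, rescaling to equal totals or by median ratios, and the highest transcript of a gene alone.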

Additional observations from a re-analysis of the deposited data

Results flagged for a closer look

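In 21 sets of 6 values, the highest or lowest value was compared with its nearest neighbour relative to the range of the set, and 5 sets held a value past Dixon's 95% critical value. Chance marks about 1 set in 20. Sik1 in litter 5 was 7.41 TPM under the ErbB4myeKO label (next highest 3.21 TPM) and 8.51 TPM under the ErbB4FF label (next highest 4.46 TPM). The Stk11 log2 ratio was -3.50 in litter 3, where the next lowest litter had 0.22. Creb1 was listed at 0 in the ErbB4myeKO library of litter 5 (next lowest 7.09 TPM), which gave a log2 ratio of -2.89 there beside -0.42 in the next lowest litter. Sik2 was left out, as its values by genotype selected it. Of the 5 values, 4 came from litter 5, and the causes were not tested.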

How the results depend on the processing

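Of 228 recomputed counts, ratios, level differences and shares, 11 turned sign and 3 moved (a count by over 1.5 times, or the Sik2 difference with a pseudocount of 0.1, for which no fold is given as the ErbB4FF libraries are mostly listed at 0). The 98 recomputed list medians all moved by less than the spread between litters, but 12 of them, in 6 lists, turned sign, 10 with a litter left out. Leaving out 1 litter always moves a single gene's mean by less than its spread, so those settings could hardly have come out otherwise. With each litter left out, between 0 and 1 gene was called for genotype (without litter 3, ENSMUSG00000076535, an immunoglobulin kappa variable gene named after its values were seen, at a log2 ratio of -3.27 and a limma adjusted p of 0.0490) and between 976 and 4076 for litter, the lowest without litter 5. Without litters in turn, log2 ratios ran from -0.085 to 0.16 for Sik3, -0.095 to 0.092 for Crtc1, -0.50 to 0.42 for Stk11 and -0.39 to 0.30 for Creb1, which was 0.081 with its highest transcript alone. The log2 level of Stk11 minus Creb1 was 0.02 and ran from -0.38 to 0.57 with a litter left out, with 0.94 for the highest transcript alone, and that of Creb1 minus Crtc3 was 0.24, but -0.68 under the same alternative. With a pseudocount of 0.1 the ratios of Stk11 and Creb1 went from -0.23 to -0.58 and -0.57, with the same direction and no call. Without the litter block (no pairing), 0 genes were called and 75, in place of 721, had an unadjusted p under 0.05. The Creb1 share then differed by -1.74 percentage points (exact permutation p = 0.929). That setting also took in the ErbB4FF library of litter 5, at a share of 0%, so that the ErbB4FF mean was 54.0% in place of 64.8%. With no filter 983 of 15865 genes had an unadjusted p under 0.05. The median of class IIa HDACs rested on Hdac5, which fell below the filter without litter 5 or 6. Sik2, Stk11 and Creb1 were listed at 0 in some libraries, and 6 litters allow no exact p below 0.0312.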
